A study of Homo sapiens with 10 samples.

Results

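The DNA replication and G1/S genes are 43 human genes that encode the proteins which license, unwind and copy DNA and the regulators that carry cells into S phase. They were chosen by name for what their products do, with earlier results of these data known, and all 43 were found by symbol among the 58302 genes of the deposited tables. RNA-Seq was read from 10 libraries of 3 human hepatocellular carcinoma cell lines, with 1 library per condition, so no difference below has a replicate check and no p-value is given. SK-hep1 cells gave 5 libraries, 1 of mock control and the others of cells overexpressing PSPC1, PSPC1 with PTK6 (PSPC1/PTK6), the PSPC1-Y523F mutant, or that mutant with PTK6 (PSPC1-Y523F/PTK6). Mahlavu cells gave 3 libraries, namely mock control, the C-terminal PSPC1 fragment PSPC1-CT131, and Mut-NLS-CT131, which carries a mutated nuclear localization sequence. Both Huh-7 libraries came from cells without overexpression, 1 untreated and 1 given 10 ng/ml hepatocyte growth factor (HGF) for 48 h. PSPC1 is a paraspeckle RNA-binding protein, PTK6 is a nonreceptor tyrosine kinase, and Y523F replaces the PSPC1 tyrosine studied as a PTK6 site with phenylalanine. The expression plasmids were transfected, and the sources do not say whether the sequenced cells were transient transfectants or selected clones. SK-hep1 is filed as hepatocellular carcinoma in the labels, but the hepatocyte markers ALB, TTR and FGB had no read in any SK-hep1 or Mahlavu library, whereas SERPINA1, another such marker, was 16.3 to 42.3 FPKM in SK-hep1 and 7.97 to 10.2 in Mahlavu libraries. The 8 hepatocyte markers together summed to 21.6 FPKM in SK-hep1 mock, 8.13 in Mahlavu mock and 26324 in untreated Huh-7 cells.

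Before S phase, the origin recognition complex, CDC6 and CDT1 load the MCM2-7 helicase onto origins, which licenses them. Cyclin E with its kinase and the loss of RB from E2F factors then start the S-phase program, CDC45 and the GINS complex turn the loaded helicase on, and the polymerases, held by the PCNA clamp, copy the DNA. Many of these genes are known E2F targets and are transcribed together in late G1. In a bulk library a lower level can come from fewer cells near S phase or from less RNA per cell, and these cannot be told apart.

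The promoter table from RefSeq, build GRCh38.p14, gives 250 bases before and 50 after a start, and 39 of the 43 genes matched it by symbol. CCNE2, MCM4, MCM5 and GINS4 are named only. A search on both strands for the E2F-type words TTTCCCGC, TTTCGCGC, TTTGCCGC and TTTGGCGC found at least 1 in 22 of 39 genes (56.4%), against 3.99% of the 27305 genes in the table, 37.2% of 43 other replication and G1/S genes and 11.5% of 26 G2/M and mitotic genes. A gene can have more than 1 start listed, and a match at any of them counted. By start, 45.1% of 51 starts of members matched, against 3.31% of 35116 starts of all genes. These words can overlap each other where a site is a palindrome, as in MCM2. The CHR word TTTGAA, which is known from G2/M promoters, was found in 1 of 39 members (2.56%), RRM1, against 69.2% of the G2/M genes and 18.2% of all genes. CCAAT was found in 59.0% of the members, 76.9% of the G2/M genes and 39.7% of all genes. A match is a description of letters and not a site shown to be bound.

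The windows of 6 members are shown because these genes carry the largest differences or stand for a complex, from 90 bases before to 30 after the start, 5′ to 3′ on the gene's strand, with E2F-type words in capitals.
UHRF1, chr19:4909411-4909530, plus strand, the member with the largest difference: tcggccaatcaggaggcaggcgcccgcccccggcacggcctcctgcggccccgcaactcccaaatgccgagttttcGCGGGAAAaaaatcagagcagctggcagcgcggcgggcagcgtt
E2F2, chr1:23531204-23531323, minus strand, an E2F factor: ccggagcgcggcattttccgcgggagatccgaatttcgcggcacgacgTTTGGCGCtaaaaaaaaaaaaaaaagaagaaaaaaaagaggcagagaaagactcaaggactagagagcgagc
CDC6, chr17:40287789-40287908, plus strand, the origin loader: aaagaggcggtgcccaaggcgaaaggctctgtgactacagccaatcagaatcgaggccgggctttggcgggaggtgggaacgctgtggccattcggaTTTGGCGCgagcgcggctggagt
GINS2, chr16:85688925-85689044, minus strand, a GINS subunit: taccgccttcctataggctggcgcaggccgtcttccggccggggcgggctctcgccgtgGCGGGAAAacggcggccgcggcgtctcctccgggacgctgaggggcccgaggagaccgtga
MCM2, chr3:127598321-127598440, plus strand, a helicase subunit: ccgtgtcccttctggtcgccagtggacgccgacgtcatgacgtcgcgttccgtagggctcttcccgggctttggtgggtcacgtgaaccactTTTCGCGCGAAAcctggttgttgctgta
PRIM2, chr6:57314715-57314834, plus strand, the primase subunit with no match: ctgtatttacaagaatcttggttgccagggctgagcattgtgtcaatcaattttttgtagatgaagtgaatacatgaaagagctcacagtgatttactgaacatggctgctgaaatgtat
The word began 14 bases before the start in UHRF1, 42 before it in E2F2 and 31 before it in GINS2. In MCM2 and CDC6 it lay after the start, from base 3 and base 8. PRIM2 had none in the 300-base window of either of its 2 starts. Where a gene had several starts, the window shown is of the first listed start with a match. If none matched, it is of the first listed start.

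Reads on genes numbered from 15245935 to 24278662 per library. The library labels were checked first. PSPC1 had 0 reads in SK-hep1 mock, and 209 with PSPC1, 930 with PSPC1/PTK6, 71 with PSPC1-Y523F and 2539 with PSPC1-Y523F/PTK6. PTK6 was 16.7 FPKM with PSPC1/PTK6 and 10.5 with PSPC1-Y523F/PTK6, against 4.09 to 5.69 in the other SK-hep1 libraries. PTK6 also differed between Mahlavu libraries, none of which is labelled with PTK6, at 8.95 in mock and 17.2 and 17.3 with the PSPC1-CT131 and Mut-NLS-CT131 labels. In Mahlavu cells PSPC1 was 47.3 FPKM in mock, 30.8 under the PSPC1-CT131 label and 22.5 under the Mut-NLS-CT131 label, so neither label is checked by a rise of this gene. The deposited value of a gene is FPKM, its reads scaled for gene length and library total. For the comparisons FPKM were quantile normalised, which gives the libraries 1 common distribution, and a log2 fold change is the difference of log2(normalised FPKM + 1) between 2 libraries. A gene was counted as higher or lower from 1.5-fold, which is a size and not a test.

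Of every 1000000 reads on genes, those on the 43 members together were 4496 in SK-hep1 mock, 3226 with PSPC1, 2532 with PSPC1/PTK6, 5039 with PSPC1-Y523F and 3852 with PSPC1-Y523F/PTK6. The Mahlavu libraries gave 4029 in mock, 3683 under the PSPC1-CT131 label and 2602 under the Mut-NLS-CT131 label. Huh-7 cells gave 3624 untreated and 3100 after HGF. PSPC1/PTK6 and Mut-NLS-CT131 were the lowest libraries of their lines, and PSPC1-Y523F was the highest of all 10. The 95% Poisson interval of the lowest, 2512 to 2552, covers counting error only, as do all intervals given here.

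With PSPC1 in SK-hep1 cells, 15 of 43 genes were at least 1.5-fold lower than in mock and 0 were higher, against 8.66% of 12411 genes lower and 9.57% higher. Deposited FPKM put 23 members lower, against 10.6% of genes. The median log2 fold change of the members was -0.53, and -0.03 over all genes. The lower members held 5 of the 6 MCM2-7 subunits, MCM10, GINS2, GINS3, CDC6, RFC5, POLE2, both primase genes, FEN1 and E2F2. POLD1 was the member farthest in the other direction, at 0.38.

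With PSPC1/PTK6 the members were lower than in mock by a median of -0.83, with 32 of 43 at least 1.5-fold lower and 0 higher. Of 12436 genes tested, 12.8% were lower and 12.4% higher. At 2-fold, 17 members were lower, against 3.32% of genes. In FPKM as deposited 28 members were at least 1.5-fold lower and 0 higher, against 7.61% and 21.1% of genes. All 43 members had a value below 0, against 52.8% of all genes, and between 42 and 43 did under the other settings tried. The 11 that did not reach 1.5-fold were ORC6, GMNN, PCNA, RFC4, POLD1, POLE2, PRIM1, LIG1, RRM1, TYMS and TK1, from -0.58 to -0.11. The library was the lowest of the 5 SK-hep1 libraries for 33 of 43 members, against 28.4% of genes, and for 28 members in FPKM as deposited.

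With PSPC1-Y523F alone the members had a median of 0.14 against mock. PRIM2 and MCM6 were lower, and POLD1, CDC45 and RRM2 were higher, which is 2 and 3 of 43 against 9.33% of genes in either direction, so the shares were near or below those of all genes. With PSPC1-Y523F/PTK6 the median was -0.35, with 8 of 43 lower (7.1% of genes) and 0 higher (8.19% of genes). In FPKM as deposited 16 members were lower and 0 higher, against 10.7% and 6.98% of genes. The 8 of normalised FPKM were MCM3, CDC6, RFC3, RFC4, RFC5, POLE, PRIM2 and E2F2, 3 of them in the clamp loader. The PSPC1-Y523F library was the highest of the 5 for 25 members, against 24.8% of genes, and mock for 16, against 20.3%. These 4 comparisons share the mock library, which enters each value.

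In Mahlavu cells the library labelled PSPC1-CT131 gave a median of -0.05, which was between -0.26 and 0.02 under the other settings, so no direction is read from it. CCNE2, CDC6, PCNA and RFC3 were lower (4 of 43, against 12.3% of genes) and 0 were higher (11.2% of genes). Deposited FPKM put 10 members lower and 0 higher, against 25.9% and 5% of genes. In this comparison the fold change rose with the GC content of a gene, with a Spearman rho of 0.57 across 12402 genes, and 0 members reached 1.5-fold lower once length and GC content were taken out. The library labelled Mut-NLS-CT131 gave a median of -0.55, with 20 of 43 lower against 11.3% of genes and 0 higher against 11.1%. In FPKM as deposited 23 were lower and 0 higher, against 14.9% and 7.75% of genes. It was the lowest of the 3 Mahlavu libraries for 36 members, against 34.8% of genes. The rho with GC content was -0.10 there. Both comparisons share the Mahlavu mock library.

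After HGF in Huh-7 cells the members were lower by a median of -0.22 and 37 of 43 were below 0, against 50.4% of genes, but 0 reached 1.5-fold in either direction. Only 1.45% of 14262 genes were lower and 1.81% higher by that size. The members ran from CCNE2 at -0.48 to GMNN at 0.16. The read counts behind CCNE2 were 49 and 28, with Poisson intervals of 36.3 to 64.8 and 18.6 to 40.5, which overlap.

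**Figure D1:**
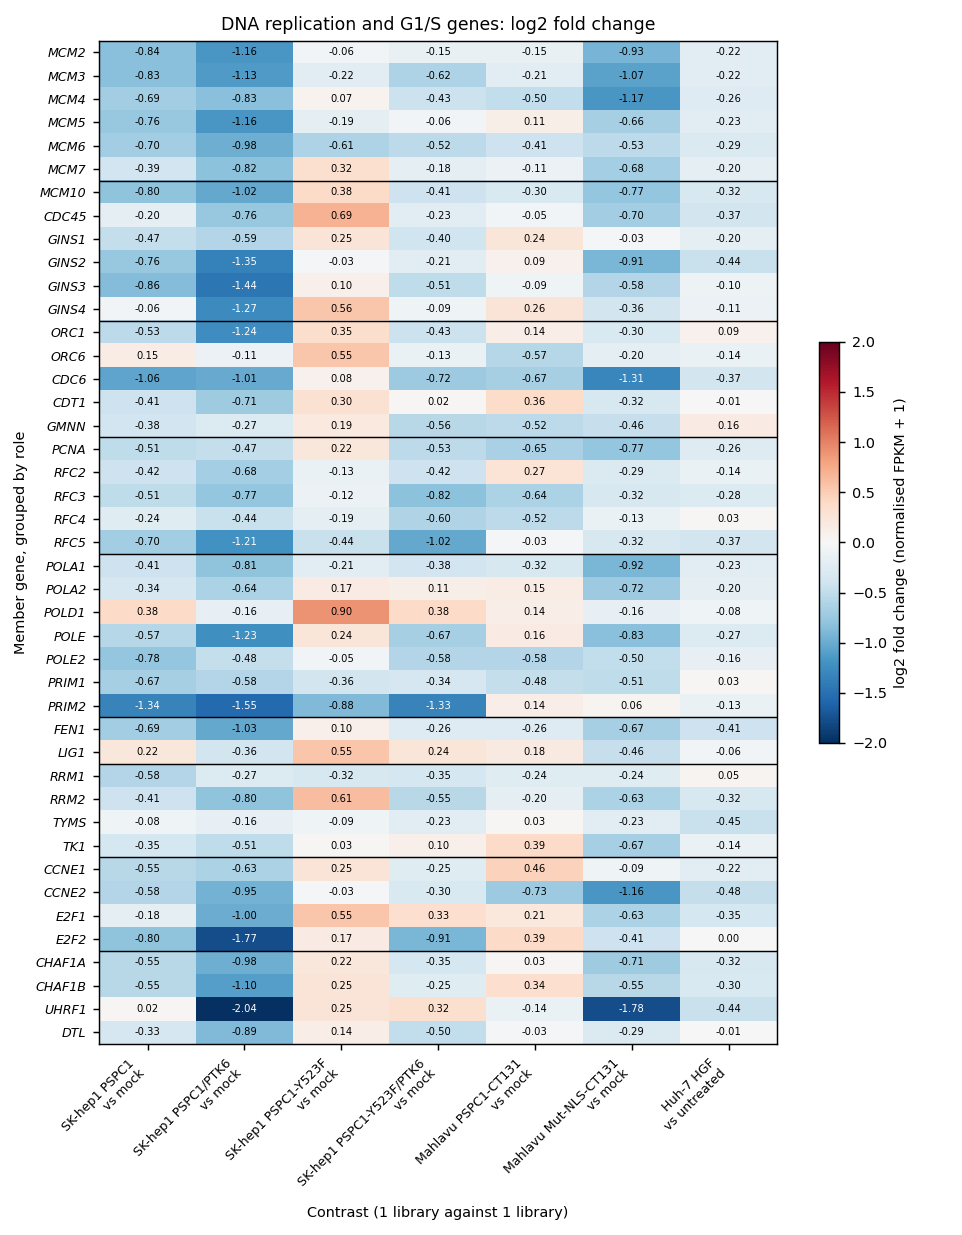
Log2 fold change of normalised FPKM + 1 for each of the 43 genes (rows, grouped by role) in 7 comparisons of 1 library with its control (columns), with blue for lower and red for higher. The PSPC1/PTK6 column is below 0 in all 43 rows, with UHRF1 at -2.04, and the PSPC1-Y523F column holds values on both sides of 0.

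The MCM2-7 helicase is a ring of 6 different subunits that is the core of the replicative helicase. MCM2 was 206 normalised FPKM in SK-hep1 mock, 115 with PSPC1, 92.0 with PSPC1/PTK6, 197 with PSPC1-Y523F and 185 with PSPC1-Y523F/PTK6. The Mahlavu values were 191, 172 with the PSPC1-CT131 label and 99.4 with the Mut-NLS-CT131 label, and in Huh-7 cells it was 143 and, after HGF, 122. MCM2 was thus low in both PSPC1 libraries without the mutation and in Mut-NLS-CT131, with log2 fold changes of -0.84, -1.16 and -0.93. MCM5 was 189, 111, 84.2, 165 and 181 normalised FPKM in the SK-hep1 libraries in the order above, and 146, 157 and 92.0 in the Mahlavu libraries, low in the same 3 libraries as MCM2. MCM3 was 106, 59.5, 48.1, 91.3 and 68.7 in SK-hep1 and 58.4, 50.5 and 27.3 in Mahlavu cells. MCM3 was therefore also low with PSPC1-Y523F/PTK6, at -0.62. MCM4 was 167, 103, 93.1, 175 and 123 in SK-hep1 cells, and 219, 154 and 96.8 in Mahlavu cells, where its -1.17 with Mut-NLS-CT131 was the lowest of the ring.

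MCM6 stood apart in SK-hep1 cells, at 58.4 normalised FPKM in mock and 29.2 to 40.4 in the 4 others, with 38.0 under PSPC1-Y523F. It was the only subunit at least 1.5-fold lower in that library. MCM7 was 486 in mock, 372 with PSPC1, 274 with PSPC1/PTK6, 606 with PSPC1-Y523F and 431 with PSPC1-Y523F/PTK6, and it was 390.3, 362 and 244 in Mahlavu cells. In Huh-7 cells the 6 subunits were lower after HGF by -0.29 to -0.20. MCM7 had the highest deposited FPKM of the ring in all 10 libraries, which compares levels per length, and its ratio to the lowest subunit ran from 5.46 in untreated Huh-7 to 17.6 with PSPC1-Y523F. The lowest subunit was MCM6 in SK-hep1, MCM3 in Mahlavu and MCM5 in Huh-7 libraries. The MCM7 gene also hosts intronic microRNA genes, and how reads of overlapping genes were counted is not given in the sources used here.

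**Figure D2:**
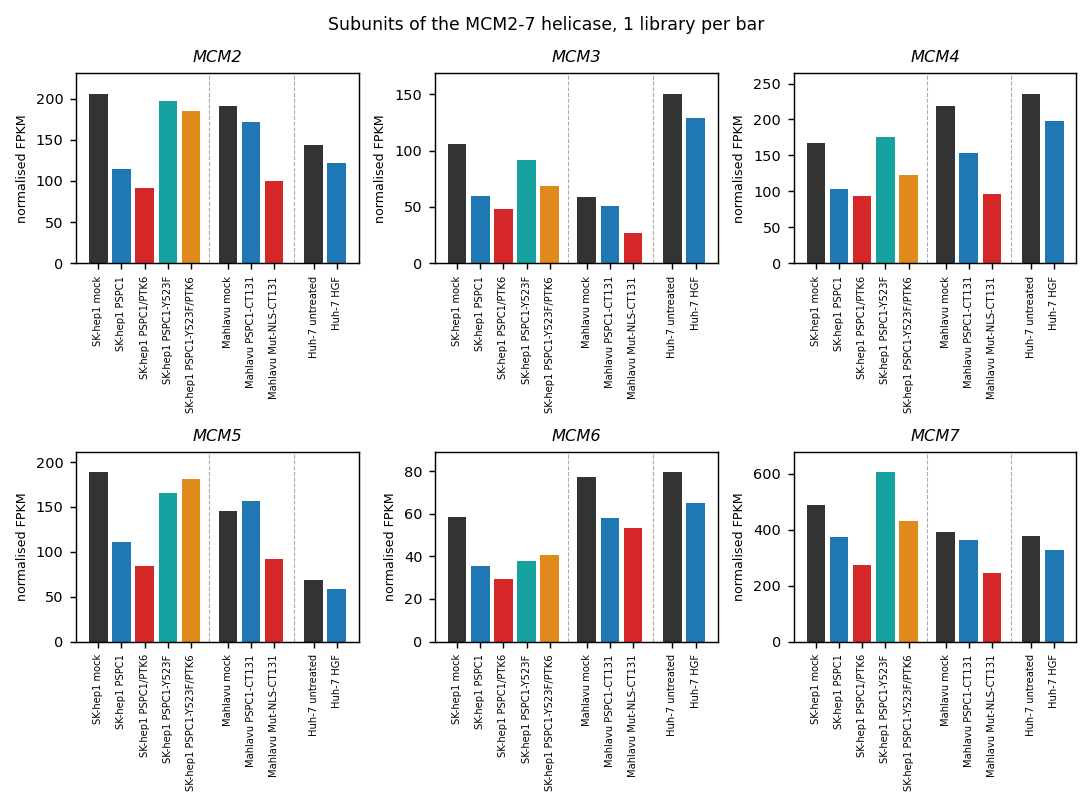
Normalised FPKM of the 6 MCM2-7 subunits, 1 bar per library, with dashed lines between the cell lines; SK-hep1 and Mahlavu libraries were normalised together and Huh-7 libraries apart. PSPC1/PTK6 is the lowest SK-hep1 bar and Mut-NLS-CT131 the lowest Mahlavu bar of every subunit.

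The genes that switch on the loaded helicase encode CDC45, the 4 GINS subunits and MCM10, an activation factor. With PSPC1/PTK6 all 6 were at least 1.5-fold lower than in mock, against 12.8% of genes, with a median of -1.14. GINS2 was 20.3 normalised FPKM in SK-hep1 mock, 11.6 with PSPC1, 7.36 with PSPC1/PTK6, 19.9 with PSPC1-Y523F and 17.4 with PSPC1-Y523F/PTK6, and 44.8, 47.6 and 23.4 in the Mahlavu libraries. GINS3 was 14.3, 7.39, 4.62, 15.3 and 9.70 in SK-hep1 and 31.5, 29.6 and 20.7 in Mahlavu cells. Both subunits were low with PSPC1 and lower with PSPC1/PTK6. GINS4 differed, since it was 12.3 in mock and 11.8 with PSPC1 but 4.55 with PSPC1/PTK6, 18.7 with PSPC1-Y523F and 11.5 with PSPC1-Y523F/PTK6. GINS1 was lower by -0.59 with PSPC1/PTK6 and by -0.47 with PSPC1. In FPKM as deposited GINS1 was 25.8 with PSPC1/PTK6 against 35.7 in mock, which does not reach 1.5-fold. CDC45 was 49.7 in mock, 43.2 with PSPC1, 28.9 with PSPC1/PTK6, 81.1 with PSPC1-Y523F and 42.4 with PSPC1-Y523F/PTK6. MCM10 was 15.2, 8.33, 6.99, 20.1 and 11.2 in the same order. With the Mut-NLS-CT131 label, MCM10, CDC45 and GINS2 were lower than in Mahlavu mock, at -0.77, -0.70 and -0.91, and GINS1 was at -0.03.

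The 5 origin licensing genes ran from -1.24 to -0.11 with PSPC1/PTK6 against mock. CDC6, an ATPase that loads the helicase with CDT1, was 47.4 normalised FPKM in SK-hep1 mock, 22.1 with PSPC1, 23.0 with PSPC1/PTK6, 50.1 with PSPC1-Y523F and 28.5 with PSPC1-Y523F/PTK6. For Mahlavu cells CDC6 was 57.2 in mock, 35.7 with the PSPC1-CT131 label and 22.5 with the Mut-NLS-CT131 label, and in Huh-7 cells it was 40.5 and, after HGF, 31.0. CDC6 was thus at least 1.5-fold lower than control in 5 of the 7 comparisons, PSPC1-Y523F and HGF being the exceptions. In the PSPC1-CT131 comparison it did not reach that size once length and GC content were taken out. ORC1, the largest subunit of the origin recognition complex, was 13.7, 9.12, 5.21, 17.6 and 9.90 in the SK-hep1 libraries, and reached 1.5-fold lower only with PSPC1/PTK6, at -1.24. ORC6, its smallest subunit, reached 1.5-fold in no comparison with a control. CDT1 was lower with PSPC1/PTK6, at -0.71. GMNN encodes geminin, which binds CDT1 and prevents reloading, and it stayed between -0.56 and 0.19 in all 7. The ratio of CDT1 to GMNN in deposited FPKM was 2.30 in SK-hep1 mock, 1.58 with PSPC1/PTK6 and 3.65 with PSPC1-Y523F/PTK6.

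PCNA encodes the sliding clamp, and RFC2 to RFC5 encode the small subunits of its loader. PCNA was 108 normalised FPKM in SK-hep1 mock, 75.4 with PSPC1, 77.8 with PSPC1/PTK6, 126 with PSPC1-Y523F and 74.4 with PSPC1-Y523F/PTK6. The 3 low values lie close together and none is 1.5-fold lower than mock. In Mahlavu cells PCNA was 102, 64.8 and 59.6, at least 1.5-fold lower in both labelled libraries. With the PSPC1-CT131 label it did not reach that size once length and GC content were taken out. RFC5 was 35.4 in SK-hep1 mock, 21.4 with PSPC1, 14.8 with PSPC1/PTK6, 25.9 with PSPC1-Y523F and 16.9 with PSPC1-Y523F/PTK6. RFC3 and RFC2 were lower with PSPC1/PTK6, at -0.77 and -0.68, and RFC4 was not, at -0.44. After HGF the loader genes ran from -0.37 in RFC5 to 0.03 in RFC4.

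The polymerase genes did not move as a block. POLE, the catalytic subunit of the leading strand polymerase epsilon, was 80.3 normalised FPKM in SK-hep1 mock, 53.7 with PSPC1, 33.7 with PSPC1/PTK6, 94.8 with PSPC1-Y523F and 50.1 with PSPC1-Y523F/PTK6. POLD1, the catalytic subunit of polymerase delta, was 113, 147, 101, 212 and 147 in the same order. The ratio of POLD1 to POLE in deposited FPKM was 1.42 in SK-hep1 mock and 2.30 to 3.18 in the 4 other SK-hep1 libraries. In Mahlavu cells the ratio was 1.70 in mock, 1.79 with the PSPC1-CT131 label and 2.74 with the Mut-NLS-CT131 label. POLA1 and POLA2, subunits of the polymerase that starts each new strand, were lower with PSPC1/PTK6, at -0.81 and -0.64, and with Mut-NLS-CT131, at -0.92 and -0.72. POLE2 was lower with PSPC1, at -0.78, and was at -0.48 with PSPC1/PTK6. PRIM1, the catalytic primase subunit, was at -0.67 with PSPC1 and at -0.58 with PSPC1/PTK6.

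PRIM2, the large primase subunit, behaved differently between lines. It was 16.9 normalised FPKM in SK-hep1 mock and 6.05 with PSPC1, 5.11 with PSPC1/PTK6, 8.70 with PSPC1-Y523F and 6.09 with PSPC1-Y523F/PTK6. It was 12.8, 14.2 and 13.4 in the 3 Mahlavu libraries and 19.0 and 17.3 in Huh-7 cells. PRIM2 was therefore the only member at least 1.5-fold lower in all 4 SK-hep1 comparisons with mock, and it did not reach that size elsewhere. These 4 comparisons share the mock library, so its 1 PRIM2 value enters all of them. The share of all genes lower in all 4 was not computed. The reads behind it in SK-hep1 cells were 357 in mock, 106, 144, 159 and 123. PRIM2 lies on chromosome 6 from 57314805 to 57646849 of the build of the tables, where part of the gene has near-identical copies, so its counts are uncertain.

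FEN1 and LIG1 finish the lagging strand, the first by cutting flaps and the second by sealing nicks. FEN1 was 56.9 normalised FPKM in SK-hep1 mock, 35.0 with PSPC1, 27.3 with PSPC1/PTK6, 61.1 with PSPC1-Y523F and 47.2 with PSPC1-Y523F/PTK6, and 83.0, 69.1 and 51.7 in Mahlavu cells. LIG1 was 56.9, 66.6, 44.0, 84.0 and 67.2 in SK-hep1 cells and reached 1.5-fold in no comparison with mock. The 4 genes of nucleotide supply had the median nearest to 0 of the 9 roles with PSPC1/PTK6, at -0.39. TYMS, thymidylate synthase, stayed between -0.23 and 0.03 in the 6 SK-hep1 and Mahlavu comparisons and was at -0.45 after HGF. RRM1, the large subunit of ribonucleotide reductase, reached 1.5-fold in none of the 7. Its small S-phase partner RRM2 was 62.0 in SK-hep1 mock, 46.4 with PSPC1, 35.2 with PSPC1/PTK6, 95.0 with PSPC1-Y523F and 42.0 with PSPC1-Y523F/PTK6. TK1, thymidine kinase, was 469, 367, 329, 479 and 504 in SK-hep1 and 264, 346 and 166 in Mahlavu cells, where it was 1.5-fold lower with Mut-NLS-CT131.

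Of the G1/S regulators, E2F1 and E2F2 encode activating E2F factors, and CCNE1 and CCNE2 encode cyclin E. E2F2 was 9.60 normalised FPKM in SK-hep1 mock, 5.10 with PSPC1, 2.10 with PSPC1/PTK6, 10.9 with PSPC1-Y523F and 4.64 with PSPC1-Y523F/PTK6. Its reads were 521 in mock and 160 with PSPC1/PTK6, with intervals of 477 to 568 and 136 to 187. E2F2 was lower in every SK-hep1 library except PSPC1-Y523F, and lowest with PSPC1/PTK6. E2F1 was 34.3, 30.2, 16.6, 50.7 and 43.4, so of the SK-hep1 libraries it was 1.5-fold lower with PSPC1/PTK6 alone, and 53.5, 62.2 and 34.3 in Mahlavu cells. CCNE1 was 23.6, 15.7, 14.8, 28.2 and 19.7 in SK-hep1 and 11.0, 15.6 and 10.2 in Mahlavu cells. CCNE2 was the least expressed member, at 0.711 to 2.31 in SK-hep1 and 3.35, 1.63 and 0.947 in Mahlavu cells. It rested on 25 reads with PSPC1/PTK6 and 51 in mock, with intervals of 16.2 to 36.9 and 38.0 to 67.1.

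UHRF1 showed the largest difference of the members. It encodes the protein that reads hemimethylated DNA behind the fork and brings in the maintenance methyltransferase, and it lies on chromosome 19 from 4903080 to 4962154. UHRF1 was 57.7 normalised FPKM in SK-hep1 mock, 58.4 with PSPC1, 13.3 with PSPC1/PTK6, 68.7 with PSPC1-Y523F and 72.1 with PSPC1-Y523F/PTK6. It was low in 1 SK-hep1 library only, at -2.04 on the log2 scale against mock. In Mahlavu cells it was 13.5 in mock, 12.2 with the PSPC1-CT131 label and 3.24 with the Mut-NLS-CT131 label, the last at -1.78. The reads were 3895 in SK-hep1 mock and 1088 with PSPC1/PTK6, and 1276 in Mahlavu mock and 252 with Mut-NLS-CT131. As a share of all reads, this gave a log2 ratio of -1.98 (95% counting interval -2.08 to -1.88) and of -2.09 (-2.29 to -1.89). In Huh-7 cells UHRF1 was 20.4 and, after HGF, 14.8. CHAF1A and CHAF1B, which encode the chromatin assembly factor that places histones on new DNA, were lower with PSPC1/PTK6, at -0.98 and -1.10. DTL, which targets CDT1 for destruction in S phase, was at -0.89.

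**Figure D3:**
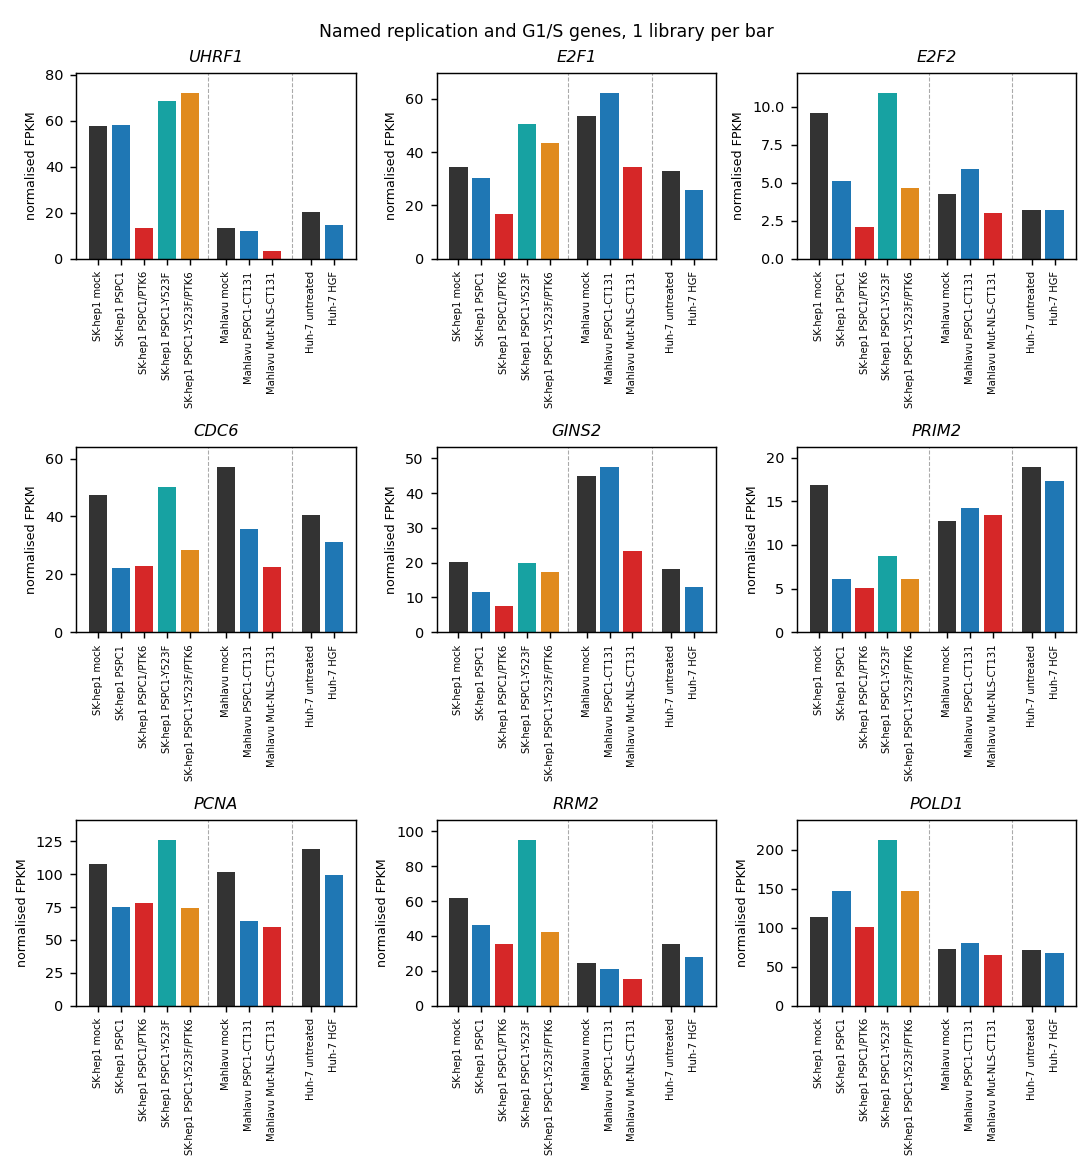
Normalised FPKM of 9 named members, 1 bar per library, each panel from 0 on its own scale, with dashed lines between the cell lines. UHRF1 is low with PSPC1/PTK6 (13.3) and with Mut-NLS-CT131 (3.24), PRIM2 is low in the 4 SK-hep1 libraries with a PSPC1 construct, and POLD1 and RRM2 are highest with PSPC1-Y523F.

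Pairs of libraries whose labels differ by 1 construct were compared directly. PSPC1 reads differed within the SK-hep1 pairs too, at 209 with PSPC1, 930 with PSPC1/PTK6, 71 with PSPC1-Y523F and 2539 with PSPC1-Y523F/PTK6. A difference by PTK6 or by the mutation therefore cannot be told apart from a difference by PSPC1 level. PTK6 added to PSPC1 gave a median of -0.31 over the 42 members tested, CCNE2 having a mean below 1 FPKM. ORC1, GINS2, GINS4, POLE, LIG1, E2F1, E2F2 and UHRF1 were lower, 8 of 42 against 7.34% of genes, and 0 were higher against 8.09%. In FPKM as deposited the median was -0.21, with 4 lower and 1 higher, against 3.13% and 18.4% of genes. PTK6 added to PSPC1-Y523F gave a median of -0.50, with 15 of 43 lower against 9.28% of genes and 0 higher against 10.4%. With FPKM scaled to the same sum 21 were lower and 0 higher, against 13.5% and 9.6% of genes. The lowest were RRM2 at -1.16, E2F2 at -1.08 and CDC45 at -0.92. These comparisons share no library, and ORC1, GINS4, POLE and E2F2 were lower in both, which is 4 of the 8 and 4 of the 15, while 2.08% of all genes were lower in both.

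PSPC1-Y523F against PSPC1 gave the highest median, 0.62, with 23 of 43 higher against 8.77% of genes and 0 lower against 9.23%. MCM10 at 1.18, CDC6 at 1.14 and RRM2 at 1.02 were the 3 largest. With PTK6 in both libraries, PSPC1-Y523F/PTK6 against PSPC1/PTK6, the median was 0.53, with 19 of 43 higher against 11.8% of genes and 0 lower against 11.3%. UHRF1 at 2.35, E2F1 at 1.33 and GINS4 at 1.18 led. In FPKM as deposited 9 of the 42 members tested were higher and 0 lower, against 5.87% and 27.6% of genes. The mutant libraries were at least 1.5-fold above the wild-type libraries in both comparisons, which share no library, for MCM2, MCM7, MCM10, ORC1, CDT1, GINS2, GINS3, GINS4, FEN1, E2F1, E2F2, CHAF1A and CHAF1B. These 13 genes are 56.5% of the 23 and 68.4% of the 19, and 3.26% of all genes were higher in both. In Mahlavu cells, PSPC1-CT131 against Mut-NLS-CT131 gave a median of 0.56, with 19 of 43 higher against 14.9% of genes and 0 lower against 15.2%. By deposited FPKM 15 were higher and 0 lower, against 9.24% and 22.6% of genes. UHRF1 at 1.64, TK1 at 1.06 and GINS2 at 0.99 led there. The rho with GC content was 0.57, and the median stayed between 0.32 and 0.57 under the other settings, GC content taken out included. In SK-hep1 cells the rho against mock was 0.18 with PSPC1, -0.09 with PSPC1/PTK6 and 0.25 with each mutant library. For PTK6 added it was -0.31 with PSPC1 and -0.02 with PSPC1-Y523F. For mutant against wild type it was 0.07 without PTK6 and 0.30 with PTK6.

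PSPC1/PTK6 against SK-hep1 mock and Mut-NLS-CT131 against Mahlavu mock share no library either. Of the members, 18 were lower in both, which is 18 of the 32 and 18 of the 20, and 3.05% of 11071 genes tested in both were lower in both. Where many members are called in each comparison, many are shared in any case. The overlap expected from those counts was not computed, here or for the overlaps above. The 18 were 5 of the 6 helicase subunits without MCM6, then MCM10, CDC6, CDC45, GINS2, POLA1, POLA2, POLE, FEN1, RRM2, CCNE2, E2F1, CHAF1A and UHRF1. Members with and without an E2F-type word had medians of -0.86 (22 genes) and -0.76 (17 genes) with PSPC1/PTK6, and -0.60 and -0.32 with Mut-NLS-CT131. With PSPC1 they were -0.49 and -0.55, so the order of the 2 sets was not the same in every comparison.

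Other genes of the cell cycle were read beside the members. Of 57 further replication and G1/S genes, 14 were lower and 3 higher with PSPC1/PTK6 against mock (12.8% and 12.4% of all genes), with a median of -0.34 (-0.04 over all genes), led by CLSPN at -1.44 and CDC25A at -1.21. With Mut-NLS-CT131 13 were lower and 2 higher (11.3% and 11.1% of all genes), with a median of -0.19 (0.00 over all genes). After HGF 0 passed 1.5-fold, with a median of -0.08. The median of 32 G2/M and mitotic genes was -0.07 with PSPC1, -0.32 with PSPC1/PTK6, -0.08 with PSPC1-Y523F, -0.23 with PSPC1-Y523F/PTK6, 0.12 with the PSPC1-CT131 label, 0.26 with the Mut-NLS-CT131 label and 0.02 after HGF. In PSPC1/PTK6 6 of these 32 were lower, MKI67 and FOXM1 most, at -1.25 and -0.94, and 0 higher, where 12.8% and 12.4% of all genes were. In the Mut-NLS-CT131 library 0 were lower and 4 of 32 higher, a share near the 11.1% of all genes, with BUB1 at 0.91 and PTTG1 at 0.70 leading, while 20 of the 43 members were lower. The medians of the members and of the G2/M genes thus lay on opposite sides of 0 in that library.

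**Figure D4:**
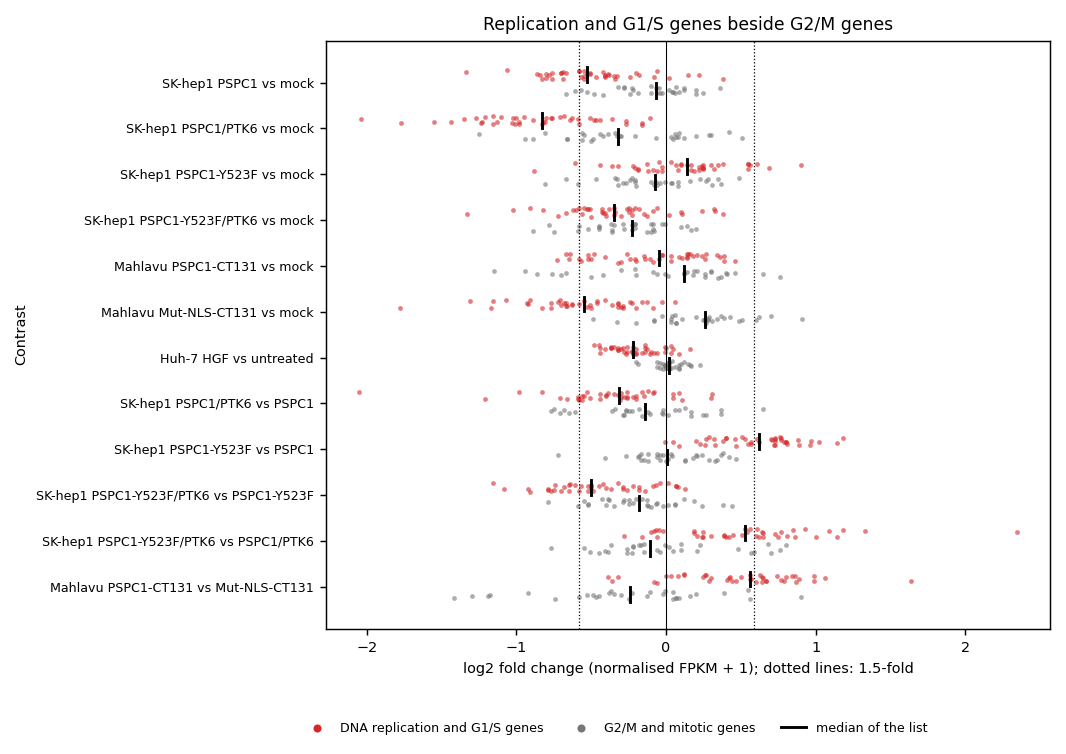
Log2 fold change of normalised FPKM + 1 for the 43 members (red) and 32 G2/M and mitotic genes (grey) in 12 comparisons, 1 point per gene, with a black bar at each list's median and dotted lines at 1.5-fold. With Mut-NLS-CT131 against mock the medians are -0.55 and 0.26, and with PSPC1-Y523F against PSPC1 they are 0.62 and 0.00.

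Upstream of the members, 12 genes of cyclin D, CDK4/6 and CDK inhibitors were listed and 9 could be tested in SK-hep1 cells. PSPC1 against mock gave them a median log2 fold change of 0.32, with 2 lower and 3 higher (8.66% and 9.57% of all genes). PSPC1/PTK6 gave -0.46, with 3 lower and 1 higher (12.8% and 12.4% of all genes). For PSPC1-Y523F it was -0.13, with 2 lower and 2 higher (9.33% of all genes in either direction). PSPC1-Y523F/PTK6 gave -0.12 and 0 in either direction (7.1% and 8.19% of all genes). With 9 genes tested, such small counts are not set apart from these shares. CCND1, the D-type cyclin that starts RB phosphorylation, was 392 FPKM as deposited in SK-hep1 mock, 180 with PSPC1, 166 with PSPC1/PTK6, 389 with PSPC1-Y523F and 356 with PSPC1-Y523F/PTK6. CDKN1C, an inhibitor of cyclin-dependent kinases, was 8.11, 12.5, 19.0, 2.06 and 6.56. CCND1 was lowest and CDKN1C highest in the 2 libraries of wild-type PSPC1, and both genes were picked after their values were seen. Others of the list had other orders. CCND3, another D-type cyclin, was 288, 511, 200, 535 and 278 FPKM, and CDKN2C, an inhibitor of CDK4 and CDK6, was 48.1, 80.6, 35.5, 96.8 and 45.8, so both were highest with PSPC1-Y523F and lowest with PSPC1/PTK6. The part of any of these in the members' levels was not tested. Of 5 replication-dependent histone genes tested with PSPC1/PTK6, 2 were lower, against 12.8% of all genes. These were H4C3, at 0.193 FPKM as deposited against 1.7 in mock, and H4C8, at 1.48 against 4.31, so both rest on low levels. H1-2, H2AC6 and H2BC5 were at 0.19, 0.12 and -0.02 on the log2 scale. The mRNAs of such histone genes lack poly-A tails, so their reads depend on how RNA was selected. All 4 histone genes tested in Mahlavu cells were lower in both labelled libraries, against 12.3% and 11.3% of all genes. The medians were -1.48 for PSPC1-CT131 and -1.02 for Mut-NLS-CT131.

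Levels between the lines can be compared only after FPKM are scaled to 1 common sum, since the Huh-7 tables were made apart. On that scale 15 of the 43 members lay within 1.5-fold over the 3 control libraries and 15 were at least 2-fold apart. CHAF1A was the most even, at 111, 113 and 113 scaled FPKM in SK-hep1 mock, Mahlavu mock and untreated Huh-7. GINS3 was the most uneven, at 16.9, 50.5 and 5.84. TK1 followed, at 649, 339 and 106, and then ORC6, at 16.0, 71.8 and 70.6. SK-hep1 mock was the highest for 15 members, Mahlavu mock for 16 and untreated Huh-7 for 12. The helicase subunits summed to 1616, 1435 and 1442, and the nucleotide supply genes to 845, 525 and 248. The matching shares of all genes were not computed, so these counts do not set the members apart from other genes. Each line is 1 library here, so these are levels of libraries and not of lines.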

How the data were processed

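RNA-Seq of 10 libraries was analysed, with groups taken from the sample labels. The authors deposited raw read counts per gene with FPKM for SK-hep1 and Mahlavu cells, and the authors deposited FPKM alone for Huh-7. Every FPKM followed from a count, the library total and 1 gene length (100% whole within 0.01), which gave the Huh-7 reads. Per the submitters' processing notes TopHat2 2.0, HTSeq 0.6.1, edgeR and GRCh38.p12 were used, while the paper's methods name hg18 and quantile normalization. The labels describe poly-A selection and the methods rRNA depletion. Of 58302 genes, 57532 had a symbol, and 8 lines without a gene identifier were left out.

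FPKM were quantile normalized over the 8 SK-hep1 and Mahlavu libraries and over the 2 Huh-7 libraries. Log2 fold changes were computed after adding 1, for genes whose mean over both libraries reached 1 FPKM, and 1.5-fold was counted. With 1 library per condition there was no test. Intervals of read counts are exact Poisson intervals (95%), and those of ratios of read shares are exact binomial intervals (95%). Both cover counting error only, since reads carry no molecular identifiers. GC content and length came from GENCODE 29 transcripts. Members, gene lists and comparisons were chosen with earlier results of these data known. The rule for named genes took all members, the 3 largest rises and falls per comparison, the MCM2-7 subunits in every library, and at most 2 genes per other list. CDKN1C, CCND1, CCND3 and CDKN2C in all SK-hep1 libraries and the promoters shown were chosen after their values were seen. Scripts were tested on simulated reads. Python 3.11.15, numpy 2.4.6, pandas 2.3.3, scipy 1.17.1, matplotlib 3.10.9, R 4.3.3 and edgeR 4.0.16 (TMM factors) were used.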

Additional observations from a re-analysis of the deposited data

Results flagged for a closer look

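Adding PTK6 to PSPC1 and adding PTK6 to PSPC1-Y523F gave log2 fold changes of opposite sign, with at least 1 past 1.5-fold, for 4 members. The share of all genes with such opposite signs was not computed, so these 4 are not read as more than other genes would give. Each difference is between 4 single libraries, which also differ in PSPC1 level, and was not tested. UHRF1 was at -2.05 with PSPC1 and at 0.07 with PSPC1-Y523F, a difference of 2.12. CDC6 was at 0.05 and -0.79, a difference of -0.84. GMNN was at 0.11 and -0.74, a difference of -0.86. PCNA was at 0.05 and -0.75, a difference of -0.79. For CDC6, GMNN and PCNA the value with PSPC1 is near 0, so the opposite sign there rests on small values, and only UHRF1 has its large value with PSPC1.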

How the results depend on the processing

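No paired analysis was possible because each condition has 1 library, and for the same reason none could be left out. Under pseudocounts of 0.1 and 5, FPKM as deposited or scaled to the same sum, quantile normalization within each line or over all 10 libraries, TMM-scaled counts (not for Huh-7), no filter or a mean of 5 FPKM, and length and GC content taken out, the medians of 11 comparisons kept their sign. The exception was PSPC1-CT131 against mock, where it ran from -0.26 to 0.02. The medians left their interval over the members for 2 comparisons. For PSPC1-CT131 against mock the median was -0.24 in FPKM as deposited and -0.26 in FPKM scaled to the same sum. For PSPC1/PTK6 against PSPC1 it was -0.21 and -0.20. There the median of all genes moved too, by -0.26 and -0.28 and by 0.22 and 0.23, and over all comparisons these scalings moved it by up to -0.31. Relative to all genes, the members' median for PSPC1/PTK6 against PSPC1 was -0.41 to -0.27.

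Counts of members past 1.5-fold ranged more. Lower members numbered 12 to 24 with PSPC1, 27 to 34 with PSPC1/PTK6, 7 to 16 with PSPC1-Y523F/PTK6, 0 to 11 with PSPC1-CT131, 11 to 24 with Mut-NLS-CT131 and 0 to 1 after HGF, against control. The lower share of all genes, over the normalised, deposited, same-sum and TMM scalings, moved as well. It was 8.66% to 11.5% with PSPC1, 7.61% to 12.8% with PSPC1/PTK6 and 6.96% to 12% with PSPC1-Y523F/PTK6. It was 12.3% to 27.8% with PSPC1-CT131, 9.82% to 16.5% with Mut-NLS-CT131 and, without TMM, 1.38% to 2.25% after HGF. PSPC1-Y523F gave 1 to 2 lower and 2 to 5 higher, against 9.33% to 11.6% and 8.22% to 9.86% of all genes. At a 2-fold threshold the lower members numbered 2, 17, 2, 0, 5 and 0 in the same order, and PSPC1-Y523F gave 0 in either direction. The share of all genes at 2-fold was computed for PSPC1/PTK6 against mock alone, at 3.32%. PTK6 added to PSPC1 gave 4 to 11 lower (2 at 2-fold) and to PSPC1-Y523F 10 to 21 (2). Over the same scalings the lower share of all genes was 3.13% to 7.56% and 7.97% to 13.5%, in that order. The mutant against wild type gave 20 to 26 higher (3) and, with PTK6, 9 to 22 (6), and PSPC1-CT131 against Mut-NLS-CT131 13 to 21 (2). The higher share of all genes was 8.24% to 10.6%, 5.87% to 14.8% and 9.24% to 14.9%, in that order. Of 5088 member values under the alternatives, 4450 moved by no more than the distance from the middle of their counting interval to its end. Of those at 1.5-fold or more, 0 changed sign. Low counts limit CCNE2 most. The cause of these shifts was not tested.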
